A study of Rattus norvegicus with 9 samples.

Results

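Mechanosensitive ion channels open when a cell membrane is stretched, swollen, or sheared, and let calcium and other cations into the cell. The group described here held 10 genes chosen by name, Piezo1 and 9 other channels of this kind, of the 32043 genes in a table of rat knee cartilage RNA sequencing. Members were taken where the gene name matched with exact capitals, so the lower-case piezo1 row, whose description is that of Nab1, was not a member. The table held 9 libraries in 3 groups of 3. The control group came from Sprague–Dawley rats whose joint capsule was opened and closed again. The model group had knee osteoarthritis made by a modified Hulth operation, in which 2 knee ligaments and the medial meniscus were removed, and forced daily activity followed. The SYD group had the same operation and was then gavaged for 4 weeks with an extract of Shengyu decoction, a herbal formula. Per the methods, the rats were males, 8 weeks old at purchase, and the knees were collected 8 weeks after surgery. The labels give no dose for the SYD libraries, which the paper calls SYD-H, the highest of its 3 doses. The labels also do not say whether the 3 libraries of a group came from separate rats, so the p-values measure only the spread between these libraries.

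PIEZO1 and PIEZO2 are large channels that membrane tension opens directly. TRPV4 and TRPV2 are calcium-permeable channels of the TRP family, and in chondrocytes, the cells of cartilage, PIEZO1 and TRPV4 are known for calcium entry under load. Calcium that enters binds calmodulin and activates calcineurin, which moves NFAT factors into the nucleus, and mechanical load also acts on gene expression through the coactivators YAP and TAZ.

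Values were FPKM, which scales the sequenced fragments of a gene by its length and by a library total, so levels of different genes within a library may be compared. The totals behind the authors' values were 1.84 to 2.38 times the reads outside the mitochondrial genes in all 9 libraries. Against all recovered reads they were 2.01 to 2.18 times in control, 0.193, 1.44, and 0.343 times in model libraries 1 to 3, and 0.609 to 1.65 times in SYD libraries, and how they were set is not given in the sources used here. A count of 3 reads of Trpv4 was thus worth 0.257 FPKM in model library 1 and 0.0237 to 0.0311 in control libraries, and differences between groups rest on this scaling. The libraries held 14914121 to 19510537 reads, recovered from the FPKM. They differed in make-up before any channel was considered. Reads on mitochondrial genes were 4.05% to 4.86% of the total in control, 39.5% to 90.7% in model, and 23.7% to 72.7% in SYD libraries. This left 1744769 reads on other genes in model library 1 and up to 17373645 in a control library. The summed FPKM of 12 chondrocyte markers, led by Col2a1 and Col11a2, ran from 478 to 11349 in control, from 165 to 787 in model, and from 163 to 1344 in SYD libraries, and none of the 12 was at 0 in all libraries. Erythroid markers, led by Hba-a1 and Hbb, summed to 295.6 FPKM in model library 2 against 38222 and 42470 in the other model libraries, so model library 2 stood apart from its group. The fold changes of the 9 tested channels against the model group are therefore also given without it. Such values rest on model libraries 1 and 3, whose mitochondrial shares were 90.7% and 81.3%, against 39.5% in model library 2. Their reads on other genes numbered 1744769 and 3611325, against 11106680 in model library 2. Leaving out model library 2 therefore keeps the model libraries with the fewest such reads, and it does not give a cleaner estimate. The labels' account of RNA extraction mentions retina. The summed FPKM of 6 photoreceptor markers, led by Gnat1 and Sag, was at most 3.50 in any library, and Crx was at 0 in all.

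Sequences are shown for the assay target of the study and for the promoters of 3 TRP channels whose levels behaved differently in the 9 libraries. The primers of the study's quantitative PCR of Piezo1 each had 20 bases.
Piezo1 forward: cgacattgacaactgcaccg
Piezo1 reverse: gtcagccagctgtggtacat
Promoter windows of 300 bases, from 250 before the start of the gene to 50 after it, were taken from a set of RefSeq promoters on the GRCr8 build. The set used here held 7 of the 10 members, and Piezo1, Trpc1, and Tmem63b were not in it. Capitals mark the GC box, GGGCGG or its reverse complement CCGCCC. The windows shown are those of Trpv4 (chr12:47598938-47599237, plus strand), Trpv2 (chr10:47771973-47772272, plus strand), and Trpm7 (chr3:134588064-134588363, minus strand).
Trpv4: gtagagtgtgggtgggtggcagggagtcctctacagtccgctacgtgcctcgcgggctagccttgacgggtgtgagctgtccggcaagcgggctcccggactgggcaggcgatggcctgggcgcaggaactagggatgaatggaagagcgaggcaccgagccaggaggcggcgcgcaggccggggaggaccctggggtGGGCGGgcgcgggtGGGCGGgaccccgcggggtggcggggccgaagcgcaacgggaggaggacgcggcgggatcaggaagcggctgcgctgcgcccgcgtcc
Trpv2: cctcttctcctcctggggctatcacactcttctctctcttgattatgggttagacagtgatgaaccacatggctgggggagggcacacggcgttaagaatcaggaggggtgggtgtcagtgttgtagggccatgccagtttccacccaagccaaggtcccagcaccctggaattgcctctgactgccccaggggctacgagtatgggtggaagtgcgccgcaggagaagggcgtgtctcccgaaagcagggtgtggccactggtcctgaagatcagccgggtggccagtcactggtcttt
Trpm7: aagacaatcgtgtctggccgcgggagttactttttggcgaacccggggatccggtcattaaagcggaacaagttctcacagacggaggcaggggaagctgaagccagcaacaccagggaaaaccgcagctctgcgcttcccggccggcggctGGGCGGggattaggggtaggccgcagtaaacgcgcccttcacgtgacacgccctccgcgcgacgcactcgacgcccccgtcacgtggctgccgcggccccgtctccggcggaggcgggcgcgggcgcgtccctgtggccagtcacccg
The Trpv4 window had 73.7% G and C, 34 CpG dinucleotides, and 2 GC boxes. The Trpm7 window had 68.0% G and C, 38 CpG dinucleotides, and 1 GC box. The Trpv2 window was the poorest of the 7 in both measures, with 58.7% G and C and 8 CpG dinucleotides, and it held no GC box. The 7 windows had a median of 68.0% G and C and 26 CpG dinucleotides, against 51.7% and 7 over 33469 promoters. GC boxes occurred in 6 of the 7 and in 33.1% of all promoters. The letters GGAATG or CATTCC, which TEAD factors are known to bind, occurred in the window of Pkd2 alone among the 7 and in 14.2% of all. Neither the AP-1 letters TGACTCA or TGAGTCA (4.63% of all) nor the SOX letters ACAATG or CATTGT (13.2% of all) occurred in any of the 7. Both strands were searched, matches that share letters were counted singly, and a match is a description of the window alone.

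The first comparison, model against control, asked which channel transcripts differed after the osteoarthritis operation. Piezo1 was the highest of the 10 channels in the control group and was the only member called lower. It was counted as a differentially expressed gene (DEG), by the study's criteria of an absolute log2 fold change over 1 with an unadjusted p under 0.05, here from limma on the log2(FPKM + 1) scale. That made 1 of 9 tested members, against 14.7% of all 13898 tested genes, of which 11.2% of all fell and 3.55% rose. Trpv4, Trpv2, and Pkd1 were also lower in the mean but did not pass the test, and the other 5 tested members had log2 fold changes between −0.18 and 0.14. No member had an adjusted p-value under 0.05 in this comparison, in which 2.59% of all tested genes did.

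Piezo1 (ENSRNOG00000056786) lies on chromosome 19 from 50544582 to 50606501, on the minus strand, in the coordinates of the authors' table. The control libraries 1 to 3 had 12.6, 11.1, and 11.1 FPKM, the model libraries 2.31, 8.17, and 1.06, and the SYD libraries 10.5, 11.0, and 8.77. Each model library was below each control library and each SYD library, and model library 2 stood closest to the other groups. The low values of model libraries 1 and 3 rested on 69 and 58 reads, against 1772 in model library 2 and 829 to 3585 in the control and SYD libraries. In bulk tissue, fewer cells of a type and less RNA per cell cannot be told apart.

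Between model and control, the log2 fold change of Piezo1 was −1.67 (SE 0.57, unadjusted p = 0.0252, adjusted p = 0.186 by limma with Benjamini-Hochberg adjustment). An exact permutation test, two-sided, gave p = 0.1, the smallest p that 3 against 3 libraries allow. Libraries of the 2 groups did not overlap in the lower direction for 20.0% of all tested genes. Without model library 2, the fold change was −2.27 (unadjusted p = 0.000886 by limma). In that fit, DEGs over all tested genes numbered 3344 instead of 2046. The DEG call was lost without any of the other 5 libraries. Its value was then −1.61, −1.69, and −1.70 without control libraries 1, 2, and 3, and −1.53 and −1.19 without model libraries 1 and 3, with unadjusted p-values by limma of 0.0596 to 0.0772. Voom on recovered reads, which kept the authors' totals as library sizes, also ended the call, at −1.08 (unadjusted p = 0.0931 by limma). On TPM, the value was −4.15, with a median of −2.60 over all tested genes. The direction held in all alternatives.

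The same libraries differed in other ways. Of the 12 chondrocyte markers, 9 were DEGs lower in the model group and none higher, with a median log2 fold change of −3.34, whereas the median over all tested genes was −0.23. Piezo1 was lowest in the 2 libraries with the largest mitochondrial share, 81.3% and 90.7%, but SYD library 3, at 72.7%, had 8.77 FPKM. The part of these differences in the Piezo1 result was not tested.

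**Figure D1:**
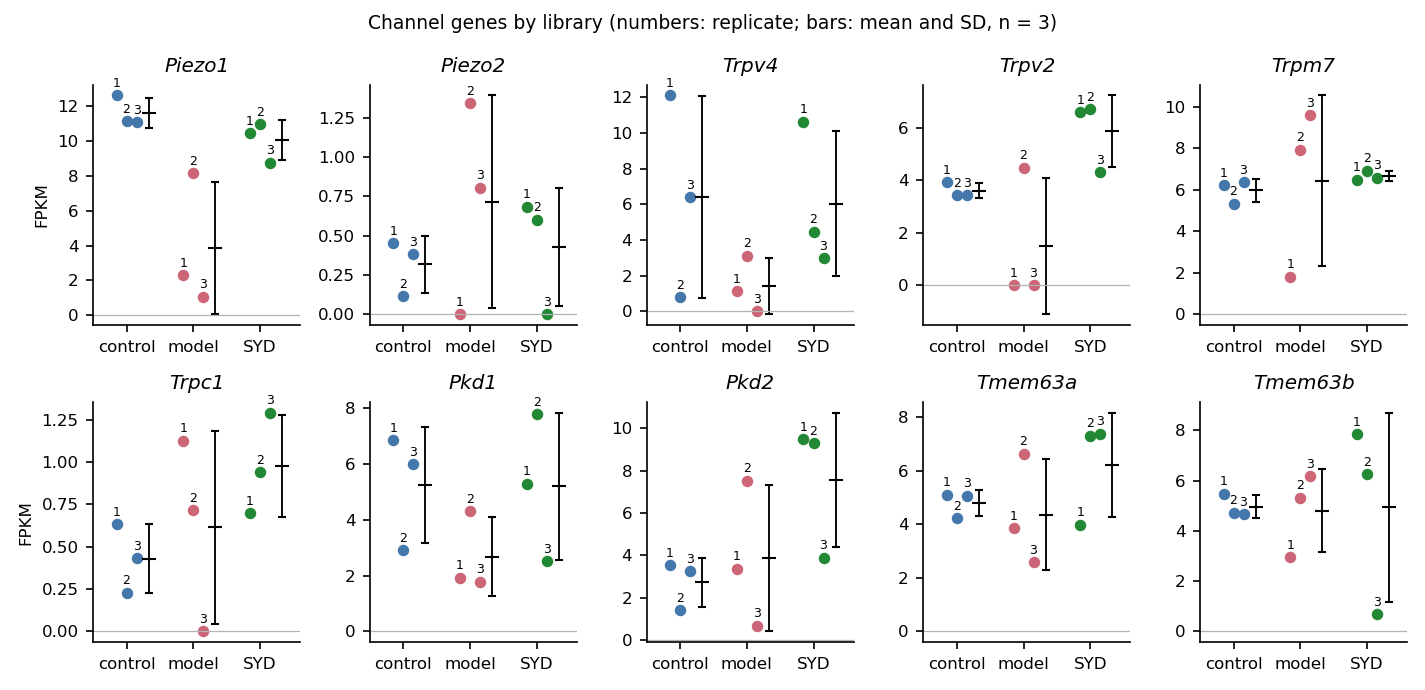
FPKM of each of the 10 channel genes (vertical axis, own scale per gene) in the 3 control, 3 model, and 3 SYD libraries; points are libraries with their replicate number, and bars are the mean and SD of 3 libraries. Piezo1 was between 1.06 and 8.17 in the model libraries, below all others, while Trpm7 lay between 5.33 and 9.59 in every library but model library 1.

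Piezo2, the channel of touch and body-position sense in sensory neurons, was the lowest member in the control group at 0.317 ± 0.180 FPKM (SD, n = 3). Its values were 0.454, 0.114, and 0.384 in control, 0, 1.34, and 0.806 in model, and 0.684, 0.603, and 0 in SYD libraries. The groups overlapped, and 2 libraries had no read, which allows up to 0.0961 FPKM in model library 1 and 0.0303 in SYD library 3 at 3 reads, for counting error only. Its mean of 0.488 over the 9 libraries fell just short of the minimum of 0.5 for testing. Tested without that filter, its log2 fold change between model and control was 0.31 (95% CI −0.56 to 1.17).

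Trpv4, an osmotically and mechanically gated calcium channel of chondrocytes, had 12.1, 0.787, and 6.40 FPKM in control, 1.11, 3.11, and 0 in model, and 10.6, 4.46, and 2.98 in SYD libraries. The control libraries alone spanned most of its range, and the groups overlapped. The log2 fold change between model and control was −1.44 (SE 0.89, 95% CI −3.60 to 0.72, unadjusted p = 0.155 by limma), which did not pass the test. Without control library 2 it was −2.26 and met the DEG criteria (unadjusted p = 0.0320 by limma), and without model library 2 it was −1.94 (unadjusted p = 0.110 by limma). On TPM, where the median of all tested genes was −2.60, it was at −3.38 and met the DEG criteria (unadjusted p = 0.0186 by limma), as did 10445 of the 13898 tested genes.

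Within the control group, the order of Trpv4 followed that of the summed chondrocyte markers, which were 11349, 478, and 5825 FPKM in control libraries 1 to 3. The same was true in the SYD group, where the markers summed to 1344, 870, and 163. In the model group it was not, as the markers summed to 787, 194, and 165 while Trpv4 was highest in library 2. The part of the marker content in the Trpv4 values was not tested.

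**Figure D2:**
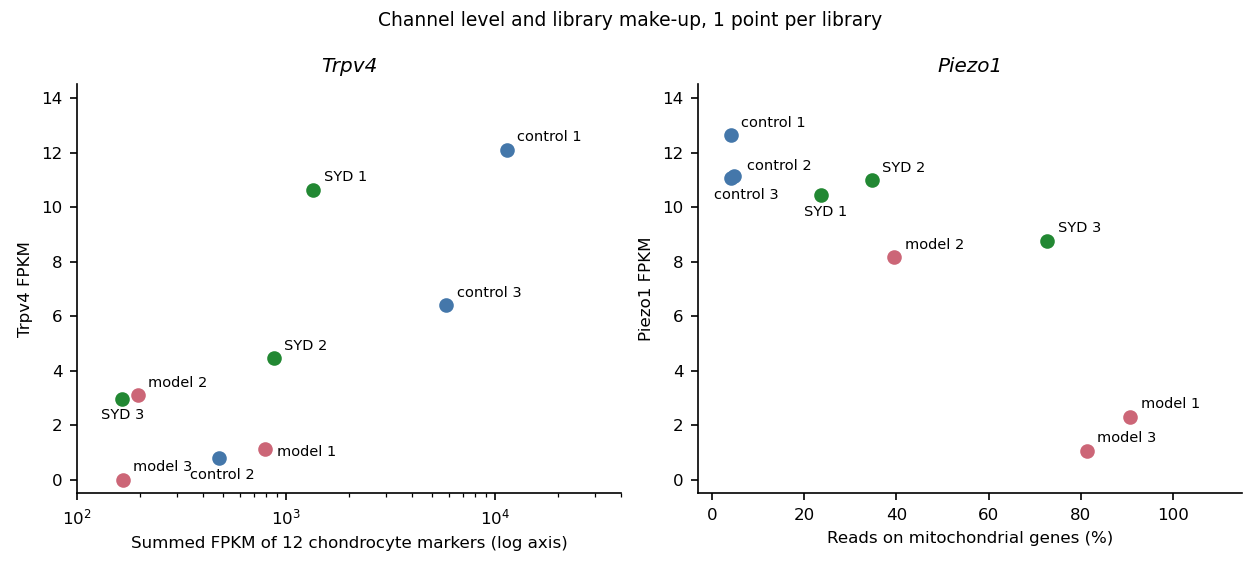
Left, Trpv4 FPKM against the summed FPKM of 12 chondrocyte markers (log axis); right, Piezo1 FPKM against the share of reads on mitochondrial genes in percent, with 1 point per library. Trpv4 ran from 0.787 to 12.1 among control libraries whose markers ran from 478 to 11349, and the 2 libraries lowest in Piezo1 had 81.3% and 90.7% mitochondrial reads.

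Trpv2, a calcium-permeable channel that also responds to stretch, was even among the control libraries at 3.93, 3.44, and 3.42 FPKM. It had 0 reads in model libraries 1 and 3 but 4.48 FPKM from 333 reads in model library 2, and 6.59, 6.70, and 4.29 FPKM in the SYD libraries. At 3 reads, the zeros allow up to 0.293 FPKM in model library 1 and 0.160 in model library 3, which lie below every other library. The model group was therefore split, with library 2 above all control libraries. The log2 fold change between model and control was −1.38 (SE 0.72, unadjusted p = 0.103 by limma). Without model library 2, it was −2.20 and met the DEG criteria (unadjusted p = 0.000267 by limma), as did 3344 of the 13898 tested genes. It also met them with voom, at −4.67, and in a fit on all 9 libraries, at −1.38. On TPM it was at −3.13, where the median of all tested genes was −2.60 and 10445 of the 13898 were DEGs.

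Trpm7, a magnesium and calcium channel fused to a protein kinase, was the steadiest member outside the model group. It had 6.22, 5.33, and 6.36 FPKM in control, 1.81, 7.92, and 9.59 in model, and 6.49, 6.91, and 6.58 in SYD libraries. Model library 3 had the highest Trpm7 level and the lowest Piezo1 level of all 9 libraries. Its log2 fold change between model and control was −0.11 (95% CI −1.44 to 1.22), and its sign turned with quantile normalization and with voom on recovered reads. Trpc1, a store- and stretch-linked cation channel subunit, was low throughout, at 0.632, 0.229, and 0.432 FPKM in control, 1.13, 0.718, and 0 in model, and 0.698, 0.942, and 1.29 in SYD libraries. Its fold change between model and control was 0.12 (95% CI −0.67 to 0.90) on the log2 scale, and its sign turned with 4 other settings and without model library 1.

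The polycystins PKD1 and PKD2 form a complex at the primary cilium, in which PKD2 is the channel subunit. Pkd1 had 6.86, 2.90, and 6.01 FPKM in control, 1.93, 4.31, and 1.78 in model, and 5.29, 7.80, and 2.53 in SYD libraries. The log2 fold change between model and control was −0.77 (95% CI −1.88 to 0.34). Pkd2 had 3.54, 1.41, and 3.27 FPKM in control, 3.37, 7.53, and 0.691 in model, and 9.49, 9.28, and 3.89 in SYD libraries. It was highest in the SYD group, and its model libraries spanned the control values on both sides. The log2 fold change between model and control was 0.14 (95% CI −1.48 to 1.76), with a negative sign on TPM and after rescaling to non-mitochondrial genes.

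The TMEM63 proteins are the animal relatives of the osmosensitive OSCA channels of plants. Tmem63a had 5.11, 4.24, and 5.07 FPKM in control, 3.85, 6.64, and 2.59 in model, and 3.98, 7.31, and 7.39 in SYD libraries. Tmem63b had 5.48, 4.72, and 4.67 in control, 2.95, 5.32, and 6.16 in model, and 7.86, 6.26, and 0.684 in SYD libraries. Both sets of groups overlapped. The log2 fold changes between model and control were −0.18 (95% CI −1.11 to 0.74) for Tmem63a and −0.08 (95% CI −0.92 to 0.76) for Tmem63b, and both signs turned with voom on recovered reads, that of Tmem63b also with quantile normalization.

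The second comparison, SYD against model, asked which of these channels differed after the decoction in operated rats. Piezo1 and Trpv2 were DEGs, both higher, 2 of 9 tested members, where 4.15% of all tested genes were DEGs, 3.62% higher and 0.532% lower. At an adjusted p under 0.05, limma called 0 of the 13898 tested genes, while 731 (5.26%) were under 0.05 unadjusted, and voom on recovered reads also called 0. With no filter on low values, 2 of 21960 genes were called, neither of them a member. This comparison uses the same model libraries as the first, so a low model group enters both.

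Piezo1 rose by 1.47 on the log2 scale (SE 0.59, unadjusted p = 0.0442, adjusted p = 0.723 by limma), with each SYD library above each model library. Such separation in the higher direction was found for 7.89% of all tested genes, and the exact permutation test gave p = 0.1. Without model library 2, the rise was 2.08 (unadjusted p = 0.00275 by limma). In that fit, DEGs over all tested genes numbered 2495 instead of 577. The call was lost without any of the other 5 libraries. The log2 fold change was then 1.34 without model library 1, 1.00 without model library 3, and 1.45, 1.41, and 1.56 without SYD libraries 1, 2, and 3, with unadjusted p-values by limma of 0.0903 to 0.122. Testing with no filter on low values, on TPM, or after rescaling to non-mitochondrial genes also ended the call, at 1.47, 2.47, and 1.96 (unadjusted p-values by limma of 0.0564 to 0.0835), as did voom on recovered reads, at 1.07.

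Trpv2 rose by 1.94 (SE 0.76, unadjusted p = 0.0407, adjusted p = 0.723 by limma), although model library 2 overlapped the SYD libraries. Without model library 2, the value was 2.76 (unadjusted p = 0.00119 by limma), where 2495 of the 13898 tested genes were DEGs. Without any of the other 5 libraries, the call was lost. The value was 1.53 without model library 1 and also without model library 3, and 1.86, 1.85, and 2.12 without SYD libraries 1, 2, and 3, with unadjusted p-values by limma of 0.0762 to 0.126. No filter, TPM, and non-mitochondrial rescaling also ended it, at 1.94, 2.37, and 3.45 (unadjusted p-values by limma of 0.0519 to 0.0883), and voom on recovered reads kept it, at 5.02 (unadjusted p = 0.00833 by limma).

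Trpv4 had a fold change of 1.62 (95% CI −0.06 to 3.30, unadjusted p = 0.0565 by limma) and Pkd2 one of 1.02 (95% CI −0.63 to 2.67), both on the log2 scale, and neither passed the test. Without model library 2, Trpv4 was at 2.12 and met the DEG criteria (unadjusted p = 0.0256 by limma), and Pkd2 was at 1.57 (unadjusted p = 0.0563 by limma). Pkd1 had 0.72 (95% CI −0.54 to 1.99), Tmem63a 0.46 (95% CI −0.62 to 1.55), Trpc1 0.35 (95% CI −0.58 to 1.28), and Trpm7 0.25 (95% CI −1.10 to 1.60). Tmem63b had −0.24 (95% CI −1.96 to 1.48), with a positive sign on TPM. The median over the 9 members was 0.72, against 0.22 over all tested genes. In the first comparison, the same medians were −0.18 and −0.23. With model library 2 left out, the log2 fold changes of the members not called were −1.07 for Pkd1, −0.41 for Pkd2, −0.35 for Trpm7, 0.04 for Trpc1, −0.47 for Tmem63a, and −0.16 for Tmem63b in the first comparison. In the second they were 1.02 for Pkd1, 0.49 for Trpm7, 0.43 for Trpc1, 0.75 for Tmem63a, and −0.16 for Tmem63b, and none of these met the DEG criteria.

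**Figure D3:**
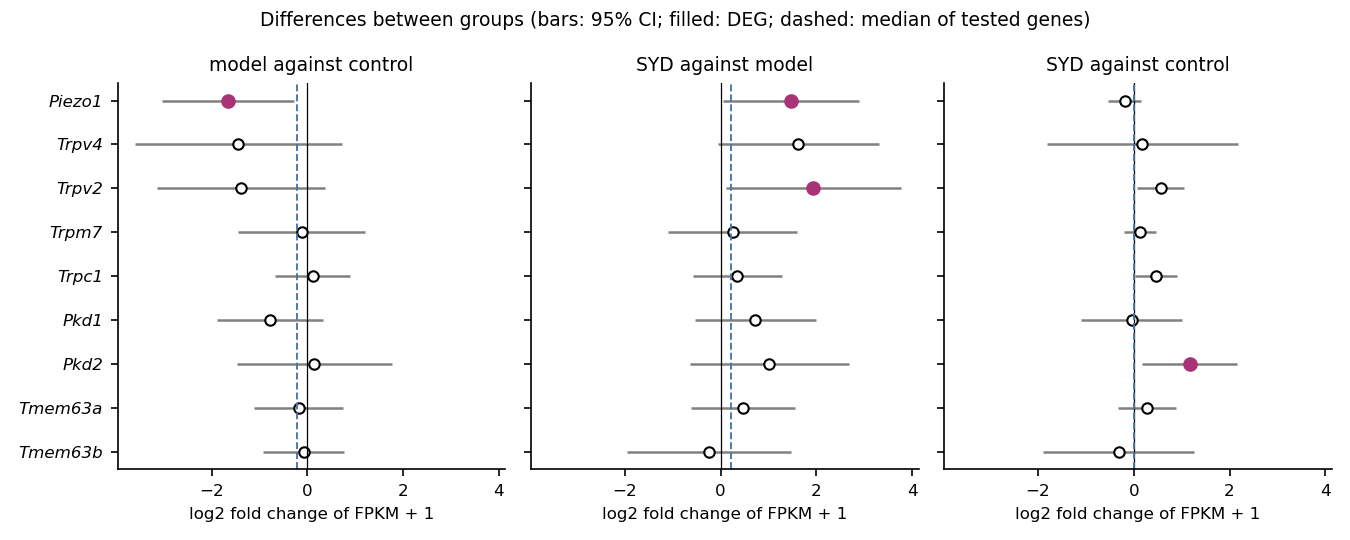
Log2 fold change of FPKM + 1 (horizontal axis) for the 9 tested channel genes in the 3 comparisons, with 95% confidence intervals; filled points met the DEG criteria and the dashed line is the median of all tested genes. Piezo1 was at −1.67 in model against control and at 1.47 in SYD against model, and Pkd2 was the filled point in SYD against control, at 1.17.

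The third comparison, SYD against control, asked how the treated rats differed from rats without the operation. Pkd2 was the DEG, 1 of 9 tested members, where 16.5% of all tested genes were DEGs, 7.25% higher and 9.22% lower. It was higher by 1.17 on the log2 scale (SE 0.41, unadjusted p = 0.0292, adjusted p = 0.104 by limma), and on TPM, where the median of all tested genes was −1.31, the value was −0.02. The call was lost without control library 2, at 0.88, without SYD library 1, at 0.98, and without SYD library 2, at 0.99, with unadjusted p-values by limma of 0.0853 to 0.0920. A fit on all 9 libraries also ended it (unadjusted p = 0.0808 by limma). Trpv2 was higher by 0.56 (unadjusted p = 0.0333 by limma), and Trpc1 by 0.47 (unadjusted p = 0.0394), both under the fold set for a DEG and both negative on TPM. With Pkd2 that made 3 of 9 members under 0.05 unadjusted, against 34.5% of all tested genes.

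Between SYD and control, Piezo1 did not pass the test. Its log2 fold change was −0.19 (95% CI −0.53 to 0.15, unadjusted p = 0.218 by limma), yet each SYD library was below each control library, with 8.77 to 11.0 against 11.1 to 12.6 FPKM. On TPM, where the median of all tested genes was −1.31, the value was −1.68 and met the DEG criteria (unadjusted p = 0.0357 by limma). Of the tested members, 5 had groups that did not overlap, Piezo1 lower and Trpv2, Trpm7, Trpc1, and Pkd2 higher. Over all tested genes, this was so for 22.2% in the lower and 20.3% in the higher direction. Trpm7 was higher by only 0.14 (95% CI −0.19 to 0.47), and its sign was negative on TPM. Endothelial markers, led by Pecam1 and Emcn, summed to 42.1 to 55.1 FPKM in control and 109.7 to 147 in SYD libraries, with 5 of 8 as DEGs between these groups and all 5 at an adjusted p under 0.05. In model libraries 1 to 3 they summed to 27.1, 235, and 76.1 FPKM, a range that took in both other groups. The part of this difference in the Pkd2 and Trpv2 results was not tested.

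Over the 3 groups at once, the limma F test gave Piezo1 an unadjusted p = 0.0129 (adjusted p = 0.137) and Trpv2 an unadjusted p = 0.0282 (adjusted p = 0.195). The other tested members ranged from an unadjusted p = 0.130 for Trpv4 to an unadjusted p = 0.864 for Trpm7. Of all tested genes, 2.32% had an adjusted p-value under 0.05. With model library 2 left out, the adjusted p by limma was 0.00675 for Piezo1 and 0.00553 for Trpv2, and the genes under 0.05 numbered 2604 instead of 323. On TPM, where 7451 of the 13898 tested genes had an adjusted p under 0.05, so did 5 of the 9 tested members, Piezo1 (adjusted p = 0.0108 by limma), Trpv2 (0.0236), Trpv4 (0.0268), Pkd1 (0.0283), and Tmem63a (0.0460). With voom, where 1062 genes had one, Trpv2 was the member that did (adjusted p = 0.0390 by limma).

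The channels were ordered by their mean level in each group. In the control group, Piezo1 led at 11.6 ± 0.879 FPKM, followed by Trpv4 at 6.43 ± 5.66 and Trpm7 at 5.97 ± 0.561 (SD, n = 3 each). The ranges of neighbours in that order overlapped except between Tmem63a and Trpv2 and between Pkd2 and Trpc1. In the model group, Trpm7 led at 6.44 ± 4.10 and Piezo1 was 5th at 3.85 ± 3.79 FPKM, with all neighbours overlapping. That order differed by library, as Trpm7 was highest in model library 3 alone, at 9.59 FPKM, Tmem63a in library 1 at 3.85, and Piezo1 in library 2 at 8.17. In the SYD group, Piezo1 led at 10.1 ± 1.16, followed by Pkd2 at 7.55 ± 3.17 FPKM, and the neighbours were apart only between Trpc1 and Piezo2. In SYD library 1, however, Trpv4 was above Piezo1, at 10.6 against 10.5 FPKM.

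A share within a library does not depend on how libraries were scaled to each other. Piezo1 made up 22.2%, 32.5%, and 23.5% of the summed FPKM of the 10 channels in control, 12.5%, 16.5%, and 4.68% in model, and 16.8%, 17.9%, and 22.8% in SYD libraries. Every model library was below every library of the other groups, although model library 2 and SYD library 1 nearly met. The mean share was 26.1% ± 5.60 in the control group, 11.2% ± 6.01 in the model group, and 19.2% ± 3.20 in the SYD group (SD, n = 3 each). The difference was −14.8 percentage points between model and control and 7.96 between SYD and model, each with an exact permutation p of 0.1, the smallest allowed. With model library 2 left out, these differences were −17.4 and 10.6. Between SYD and control it was −6.86 (exact permutation p = 0.2), with overlap. Trpm7 took 42.3% of the sum in model library 3, against 9.79% to 17.1% in the other libraries. The sum itself spanned 34.3 to 57.0 FPKM in control, 18.5 to 49.5 in model, and 38.4 to 62.2 in SYD libraries.

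**Figure D4:**
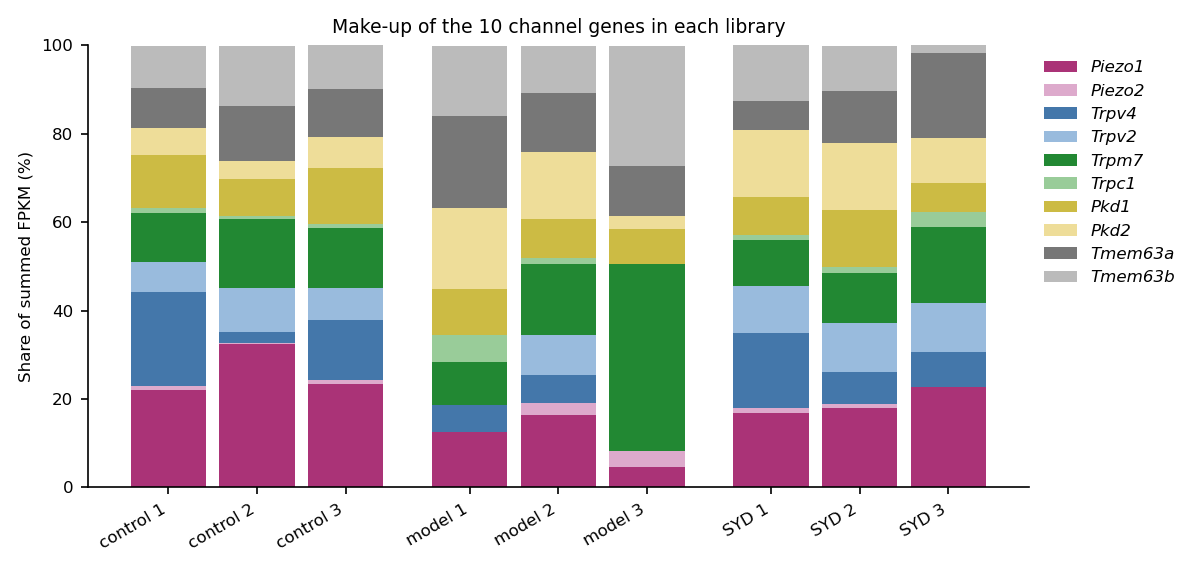
Share of each channel gene in the summed FPKM of the 10, in percent, with 1 bar per library. The Piezo1 segment at the base filled 4.68% to 16.5% of the model bars and 16.8% to 32.5% of all others, and Trpm7 made up 42.3% of model library 3.

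The 5 tested genes whose levels ran most like Piezo1 over the 9 libraries were Gars1, Tpcn1, Mydgf, Ganab, and Rfx1. Likeness was the root mean square difference of log2(FPKM + 1) values, each centred on its own mean, and it was 0.140, 0.176, 0.187, 0.198, and 0.200 log2 units in that order. Tpcn1, which encodes a two-pore cation channel of endolysosomes, had 16.8, 18.2, and 17.6 FPKM in control, 3.19, 9.17, and 1.37 in model, and 14.3, 12.6, and 10.5 in SYD libraries. Among the other members, Trpv2 was closest to Piezo1 at 0.397 log2 units, 246th of 13897 genes. Pkd1 followed at 0.590, and Tmem63b was farthest at 1.11.

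Genes of the pathways around these channels were read from lists made for this work with earlier results of these data known. Of 28 other mechanically gated or stretch-linked channels, 9 passed the filter on low values. Between model and control, Kcnk2, the stretch-activated potassium channel TREK-1, rose by 1.13, and Panx1, an ATP-releasing channel, fell by 1.06 on the log2 scale (unadjusted p = 0.0255 and 0.0204 by limma), 2 of 9 against 14.7% of all tested genes. On TPM, Kcnk2 was at −1.15, where the median of all tested genes was −2.60. Neither call held throughout. That of Kcnk2 was lost without control library 1, 2, or 3 or model library 3, at 0.92 to 1.26, and that of Panx1 without control library 2 or model library 1 or 3, at −0.92 to −0.88. None of the 9 was a DEG between SYD and model, where 4.15% of all tested genes were. The 3 highest were the connexin gene Gja1 at a mean of 48.1 FPKM over the 9 libraries, Tmem120a at 12.6, and Tmem87a at 6.47.

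Of 12 genes for partners and anchors of the channels, 11 were tested. Stom, for a membrane protein that regulates several channels, was the DEG, 1 of 11 against 14.7% of all tested genes, lower between model and control with 32.6, 64.4, and 38.2 FPKM in control against 21.2, 18.5, and 17.3 in model libraries. The fall was −1.15 on the log2 scale (SE 0.30, unadjusted p = 0.00844 by limma), and −0.87 without control library 2, which ended the call. The highest were Ctnnb1, Itgb1, and Flna at means of 101, 50.6, and 33.3 FPKM, for beta-catenin, an integrin subunit, and an actin crosslinker. Between SYD and model, 0 of the 11 were DEGs, against 4.15% of all tested genes.

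Of 21 genes that calcium acts on or through, 20 were tested, and 3 were DEGs between model and control, a share close to the 14.7% of all tested genes. Rcan2, a calcineurin inhibitor, rose by 1.14, and it was at −1.62 on TPM, where the median of all tested genes was −2.60. Capn1, a calcium-activated protease, fell by 1.70 and Ptk2b, a calcium-dependent kinase, by 1.34 on the log2 scale (unadjusted p = 0.00977, 0.0152, and 0.00591 in the order named, by limma). Capn1 lost the call without control library 2, at −1.55. Between SYD and model, Nfatc1, for an NFAT factor that calcineurin activates, was the DEG, 1 of 20 where 4.15% of all tested genes were, with 1.44, 6.88, and 2.76 FPKM in model against 10.9, 9.51, and 9.46 in SYD libraries. It rose by 1.39 (SE 0.50, unadjusted p = 0.0286, adjusted p = 0.723 by limma), and the call held without model library 2 but not without any other library, at 1.01 to 1.43, nor on TPM, at 2.41, nor with voom, at 0.85. Osteoclasts also express Nfatc1, and 3 of 6 osteoclast markers were DEGs higher in the same comparison, with a median of 1.49 against 0.22 over all tested genes. Their part in the Nfatc1 result was not tested. Calm2 and Calm3, which encode calmodulin, were among the highest of the list, at means of 118 and 42.8 FPKM, and neither was a DEG in either comparison.

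All 19 genes of the YAP and TAZ list were tested, and 4 were DEGs between model and control, where 14.7% of all tested genes were. Yap1 had 7.46, 2.28, and 5.87 FPKM in control, 24.5, 16.3, and 29.2 in model, and 17.1, 16.1, and 15.2 in SYD libraries. It rose by 2.04 on the log2 scale (SE 0.44, unadjusted p = 0.00314, adjusted p = 0.0719 by limma), and it was at −0.85 on TPM, where the median of all tested genes was −2.60. Wwtr1, which encodes TAZ, rose by 1.86 and the partner factor Tead2 by 1.19, both negative on TPM, and Stk4, a Hippo kinase that restrains YAP, fell by 1.25. Wwtr1 lost the call without model library 2, at 1.60, or 3, at 1.66, Tead2 without control library 2, at 1.12, and Stk4 without model library 2, at −0.96.

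Between SYD and model, 3 of the 19 were DEGs, where 4.15% of all tested genes were. Of these, the YAP and TAZ target genes Ccn1 and Ccn2 encode matricellular proteins. Ccn1 rose by 1.83, Ccn2 by 1.70, and the YAP regulator Ajuba by 1.72 (unadjusted p = 0.0205, 0.0288, and 0.0446 in the order named, adjusted p = 0.723 for each, by limma). Ccn2 had 49.2, 55.3, and 36.8 FPKM in model against 407, 97.7, and 89.7 in SYD libraries, so SYD library 1 stood far above the rest. Without SYD library 1, its value was 1.00, which ended the call, as did leaving out model library 1, 2, or 3, at 1.54 to 1.82. Ccn1 had 148 FPKM in SYD library 1 and lost the call without model library 1 or 3, at 1.85 and 1.51. Ajuba kept the call only without model library 2, and was otherwise at 1.34 to 1.80. Mob1a, next in level after these targets, had a mean of 16.5 FPKM and was no DEG in these comparisons.

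**Figure D5:**
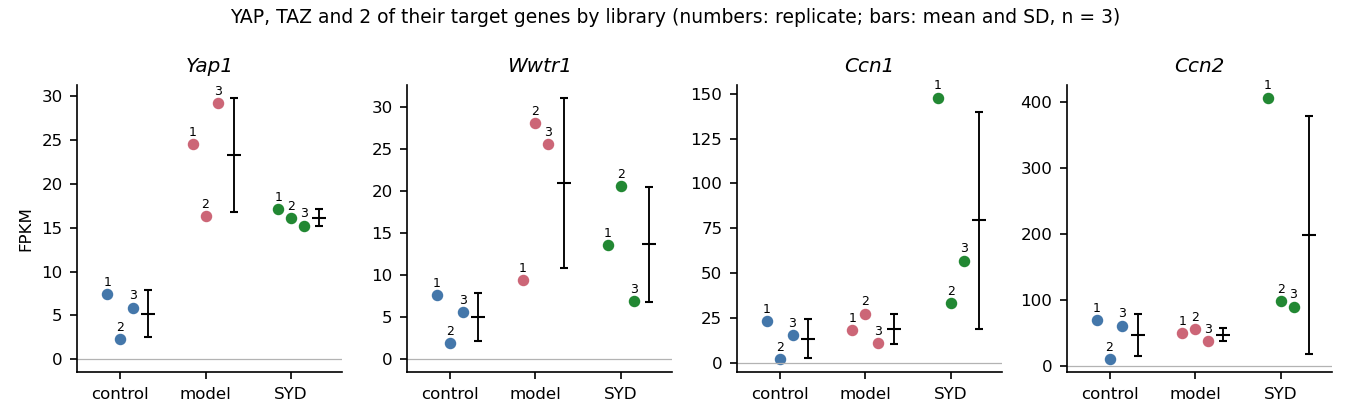
FPKM of Yap1, Wwtr1, Ccn1, and Ccn2 (vertical axis, own scale per gene) in the 3 groups; points are libraries with their replicate number, and bars are the mean and SD of 3 libraries. Yap1 was 2.28 to 7.46 in the control libraries and 15.2 to 29.2 in all others, while Ccn1 and Ccn2 peaked in SYD library 1 at 148 and 407.

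Of 21 genes of the primary cilium, where the polycystins sit, 20 were tested. Ift20, a subunit of intraflagellar transport, had 14.8, 13.0, and 13.1 FPKM in control against 32.0, 35.2, and 31.5 in model libraries. It rose by 1.21 (SE 0.20, adjusted p = 0.0414 by limma), and it was at −1.84 on TPM, where the median of all tested genes was −2.60. Of the 20 it was the DEG, where 14.7% of all tested genes were. No other gene of the pathway lists had an adjusted p-value under 0.05 in this comparison, where 2.59% of all tested genes had one. The next highest of the list, Ift52 and Ift57, had means of 8.10 and 3.67 FPKM and were no DEGs, nor was any of the 20 a DEG between SYD and model, against 4.15% of all tested genes. Between SYD and control, the number of tested genes with an adjusted p-value under 0.05 was 2 of 9 in the other channels, 6 of 11 in the partners, 6 of 20 in the calcium list, 5 of 19 in the YAP and TAZ list, and 3 of 20 in the cilium list, where 17.3% of all tested genes had one.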

How the data were processed

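Cartilage RNA of 9 rat libraries, 3 per group, was sequenced. The authors deposited a single FPKM table, 1 value for each gene in each library, plus gene positions and lengths in a rat build not given in the sources used here. The labels' processing notes name HISAT2 2.0.5 and hg38, a human build, whereas the gene identifiers are those of rat. Their FPKM times gene length gave whole reads (tolerance 0.1) for all values, and the totals the authors scaled by were 0.193 (model library 1) to 2.18 (control library 3) times the recovered reads and 1.84 to 2.38 times those outside the mitochondrial genes. The columns of values per library left out numbered 0.

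The 13898 genes that averaged 0.5 FPKM or more over the 9 libraries were tested with limma 3.58.1 in R 4.3.3, using lmFit and eBayes with a trend on log2(FPKM + 1), on the 6 libraries of each comparison, and an F test on all 9. DEGs had, after the methods, an absolute log2 fold change over 1 with an unadjusted p under 0.05. Adjusted p-values are Benjamini-Hochberg values over all tested genes. Exact permutation tests (scipy 1.17.1), two-sided, cannot go below p = 0.1 here. Fold changes on this scale understate those of low genes. Scripts were tested on simulated data. Alternatives were a pseudocount of 0.1, no filter or a mean of at least 1 FPKM, TPM, rescaling to non-mitochondrial genes, quantile normalization, all 9 libraries in one fit, the replicate number as a block, voom on recovered reads, robust eBayes, and leaving out each library. Voom took the authors' totals as library sizes, so it kept their scaling.

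The members and lists were chosen with earlier results of these data known. Named were all members, the DEGs of model against control or SYD against model and the 3 highest genes of each pathway list, the 5 genes most like Piezo1, and of each marker list genes at 0 throughout and the 2 highest. A gene that this rule names is not reported here.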

Additional observations from a re-analysis of the deposited data

How the results depend on the processing

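The direction of Piezo1 held in all 3 comparisons under every alternative run, and no member had an adjusted p-value under 0.05 in the main comparisons. DEGs over all genes numbered 2046 between model and control, 577 between SYD and model, and 2289 between SYD and control. Leaving out 1 library at a time gave 1309 to 3344, 315 to 2495, and 1788 to 2603. Rescaling to TPM, which moved the median of all tested log2 fold changes from −0.23 to −2.60, from 0.22 to 1.22, and from 0 to −1.31, gave 10445 and 6029 in the comparisons with control. Voom on recovered reads gave 3275 and 1078 for the first and second, and all 9 libraries in one fit gave 1220 for the second. The genes that differed among the groups numbered 323, against 194 with a pseudocount of 0.1, 840 with no filter, 7451 on TPM, 1062 with voom, and 5 to 2604 with 1 library left out.

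Members that were DEGs numbered 1, 2, and 1 in the 3 comparisons. With 1 library left out they numbered 0 to 2, 0 to 3, and 0 to 1. Without model library 2, 2 members had an adjusted p under 0.05 by limma between model and control, as had 2621 of the 13898 tested genes. Without SYD library 3, 2 members had one between SYD and control, as had 3526 of the 13898. TPM gave 7 DEGs among the members between model and control, where 10445 of the 13898 tested genes were DEGs. All 9 libraries in one fit gave 2 there, where 2411 were, and 0 between SYD and control, where 1797 were. Between SYD and model, no filter, TPM, and non-mitochondrial rescaling gave 0, where 422 (of 21960 tested), 529, and 573 genes were DEGs. Voom gave 1, where 1078 were, and robust eBayes 3, where 637 were. The Piezo1 share of the channels, −14.8, 7.96, and −6.86 percentage points, ranged from −17.4 to −11.6, 4.69 to 10.6, and −8.80 to −3.65 with 1 library left out.

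Signs turned for members whose intervals spanned 0 or that TPM lowered. On TPM they were −0.020 (Pkd2), −1.14 (Tmem63a), −0.19 (Trpc1), −1.29 (Trpm7), −0.76 (Trpv2), and −1.04 (Trpv4) between SYD and control, 1.05 (Tmem63b) between SYD and model, and −2.07 (Pkd2) and −1.08 (Trpc1) between model and control. Other list genes on TPM were Gja1 −0.31, Rcan1 −0.045, Capn2 −0.32, Mdfic −0.18, and Lats2 −0.13 between SYD and control, and Kcnk2 −1.15, Yap1 −0.85, Ift20 −1.84, Rcan2 −1.62, Wwtr1 −0.91, and Tead2 −1.22 between model and control. Between model and control, non-mitochondrial rescaling gave Pkd2 −0.11 and Trpc1 −0.041, a pseudocount of 0.1 gave Trpc1 −0.12, voom gave Tmem63a 0.28, Tmem63b 0.081, Trpc1 −0.79, and Trpm7 0.28, and quantile normalization gave Tmem63b 0.075 and Trpm7 0.059. Between SYD and model, quantile normalization gave Trpc1 −0.24 and voom gave Trpm7 −0.037.

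With 1 library left out, signs turned between model and control for Pkd2 (range −0.41 to 0.76), Tmem63a (−0.47 to 0.071), Tmem63b (−0.25 to 0.18), Trpc1 (−0.12 to 0.43), and Trpm7 (−0.48 to 0.48), between SYD and model for Tmem63b (−0.69 to 0.51) and Trpm7 (−0.34 to 0.61), and between SYD and control for Trpv4 (−0.64 to 0.80), Pkd1 (−0.36 to 0.31), and Tmem63b (−0.77 to 0.43).

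With the replicate number as a block, the genes that differed among the groups numbered 10. Members that were DEGs between SYD and control then numbered 0, where 2259 of the 13898 tested genes were DEGs. For the Piezo1 share, differences between same-numbered libraries have the same means by construction, and an exact sign-flip permutation test over the 3 pairs gave p = 0.25 in each comparison, the smallest it allows. The labels give a replicate number but do not say whether same-numbered libraries were paired. Correlations of deviations from the group means cannot decide it, since differently numbered libraries ranged as widely, from −0.31 to 0.26. The values of same-numbered libraries were −0.20, −0.27, and −0.080 for model and control, −0.069, 0.19, and 0.14 for SYD and model, and 0.068, −0.19, and −0.14 for SYD and control. The cause of these shifts was not tested. Depth outside the mitochondrial genes limits the values, and 3 reads of Trpv4 were worth 0.257 FPKM in model library 1 and 0.0237 in control library 3.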

Other observations

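Of all tested genes, 11.2% were DEGs lower and 3.55% higher in the model group than in the control group, 9.22% lower and 7.25% higher in the SYD group than in the control group, and 3.62% higher and 0.532% lower in the SYD group than in the model group. Beside these shares, markers of other cell types also differed between libraries, and their part in the channel results was not tested. B cell markers, led by Cd79a and Cd79b, summed to 253 to 330 FPKM in control, 6.17 to 56.0 in model, and 8.18 to 40.3 in SYD libraries, and 6 of 7 were DEGs lower in the model group than in the control group and 6 of 7 lower in the SYD group. Neutrophil markers, led by S100a8 and S100a9, summed to 2967 to 5714 FPKM in control, 69.1 to 7943 in model, and 537 to 3424 in SYD libraries, where 3 of 7 tested were DEGs lower in the model group and 5 of 7 lower in the SYD group than in the control group. Erythroid markers were DEGs in 5 of 8 between SYD and control, all lower, and in 0 of 8 in the other comparisons. Osteoclast markers, led by Ctsk and Acp5, summed to 612 to 1057 FPKM in control, 449 to 1779 in model, and 1994 to 2663 in SYD libraries, and 5 of 6 were DEGs higher in the SYD group than in the control group and 3 of 6 higher than in the model group. Osteoblast markers, led by Col1a1 and Bglap, summed to 3005 to 5971 FPKM in control, 1248 to 7481 in model, and 7764 to 10498 in SYD libraries, with 2 of 8 as DEGs between SYD and control.

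Macrophage markers, led by Cd68 and C1qb, summed to 112 to 146 FPKM in control, 65.1 to 199 in model, and 126 to 243 in SYD libraries. Synovial fibroblast markers, led by Prg4 and Thy1, summed to 38.2 to 76.0 FPKM in control, 42.9 to 138 in model, and 53.8 to 127 in SYD libraries. Skeletal muscle markers, led by Acta1 and Ckm, summed to 18.4 to 270.2 FPKM in control, 15.9 to 479 in model, and 22.4 to 763 in SYD libraries, so muscle transcripts varied within every group. Adipocyte markers, led by Fabp4 and Adipoq, summed to 8.28 to 23.3 FPKM in control, 8.88 to 69.3 in model, and 16.3 to 127 in SYD libraries.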
